A study of Mus musculus with 18 samples.

Results

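The genes described here were 9 that mark or direct the mammary lineages: the hormone receptor genes *Esr1* and *Pgr*, the luminal transcription factor genes *Gata3*, *Foxa1* and *Elf5*, the basal factor gene *Trp63*, and *Sox9*, *Sox10* and *Foxc1*. They were chosen by symbol. Each of the 2 count tables writes symbols in capitals, so that ESR1, PGR, GATA3, FOXA1, ELF5, TRP63, SOX9, SOX10 and FOXC1 were 9 of its 24360 entries. RNA-seq measured mRNA in 2 mouse mammary tumour lines that do not metastasize, 168FARN and 67NR. In each line, WT cells were compared with cells in which *Kmt2c* or *Kmt2d*, the genes of 2 methyltransferases that act on histone H3 at enhancers, had been knocked out. The groups therefore numbered 6, with 3 libraries each and 18 libraries in all, and the question was how loss of either enzyme changed gene expression in each line.

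The WT group of 168FARN carried a control sgRNA and that of 67NR was named only WT. The *Kmt2c* KO and *Kmt2d* KO groups had received sgRNAs against exon 1 of their target together with Cas9 by transient transfection, followed by repeated cell sorting. They were pools of edited cells and not clones, and sequencing of the target sites by the authors still found unmutated reads in most pools, above all in that of *Kmt2c* in 67NR. The counts used here do not give this share. All groups were grown as cell cultures in the same serum-containing medium, and none was a tumour sample. Replicates were collections separated by a passage, so each p-value measures the spread between these collections, which may be technical. Line, count table and sequencing run cannot be told apart in any value set across the lines.

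The mammary epithelium consists of an inner luminal layer and an outer basal, or myoepithelial, layer. *Esr1* and *Pgr* encode the receptors through which oestrogen and progesterone act on hormone-sensing luminal cells, and *Gata3* and *Foxa1* encode DNA-binding factors that work with the oestrogen receptor in these cells. *Elf5* directs the luminal progenitor and milk-producing alveolar fate, and *Trp63*, which encodes p63, maintains basal cells. *Sox9* and *Sox10* are active in mammary stem and progenitor cells, and *Foxc1* is expressed in basal-like breast cancers.

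Total counts ranged from 14359760 to 43427382 per 168FARN library and from 40951775 to 79251530 per 67NR library. Levels are given as CPM, the usual count scaled to library size, after TMM normalization, which allows for differences in library composition. A gene with 0 counts could have been present at up to 3 counts, which is 0.0697 to 0.212 CPM in 168FARN and 0.0347 to 0.0769 CPM in 67NR, for counting error alone. The bound for 67NR would be higher if each read pair was counted as 2 there. The deposited counts could not check the edit itself, because a change in exon 1 need not lower the mRNA. *Kmt2c* mRNA averaged 90.3 ± 39.0 CPM (SD, n = 3) in 168FARN WT cells and 79.4 ± 27.4 CPM after *Kmt2c* knockout, against 59.5 ± 4.67 and 86.8 ± 4.81 CPM in 67NR. *Kmt2d* mRNA averaged 145 ± 33.4 CPM in 168FARN WT cells and 234 ± 84.5 CPM after *Kmt2d* knockout, against 99.4 ± 14.6 and 109 ± 27.8 CPM in 67NR. The replicate 3 libraries stood apart. Deviations of replicate 3 from the group mean, over genes, correlated at -0.90 to -0.78 in 168FARN and at -0.78 to -0.55 in 67NR with those of replicates 1 and 2 in other genotypes, while replicate 3 correlated with replicate 3 at 0.88 to 0.93 and 0.66 to 0.83. Among them 67NR *Kmt2d* KO replicate 3 had 28.7% of its counts on the ribosomal RNA gene *Rn45s*, against 0.458% to 4.96% in the other 17. Results are therefore given with and without replicate 3.

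In mm9, the build used by the authors, *Esr1* lies at chr10:5340927-5734948, *Pgr* at chr9:8900419-8965425, *Gata3* at chr2:9778705-9811661, *Foxa1* at chr12:58641618-58647108 and *Elf5* at chr2:103251845-103291146. *Trp63* lies at chr16:25683849-25892188, *Sox9* at chr11:112643538-112649074, *Sox10* at chr15:78985343-78994920 and *Foxc1* at chr13:31898515-31902504.

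The first measurement was which of the 9 genes were expressed at all. In each of the 3 groups of 168FARN, 5 of the 9 had a mean below 1 CPM, and these were *Pgr*, *Foxa1*, *Elf5*, *Trp63* and *Sox10*, each with 0 counts in all 9 libraries. In 67NR WT cells 3 of the 9 were below 1 CPM, namely *Pgr*, *Elf5* and *Sox10*. *Trp63* joined them in both 67NR knockouts, which made 4 of 9 in each. *Pgr* had 0 counts in all 18 libraries. *Elf5* had 4 counts in 67NR WT replicate 1 and 0 in the other 17 libraries, and *Sox10* had 8 counts in 67NR *Kmt2c* KO replicate 1, 4 in WT replicate 3 and 4 in *Kmt2d* KO replicate 3. No fold is given for these 3 genes, whose group means did not pass 0.0348 CPM. The genes measured in both lines were thus *Esr1*, *Gata3*, *Sox9* and *Foxc1*, and 67NR added *Foxa1* and *Trp63*.

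**Figure D1:**
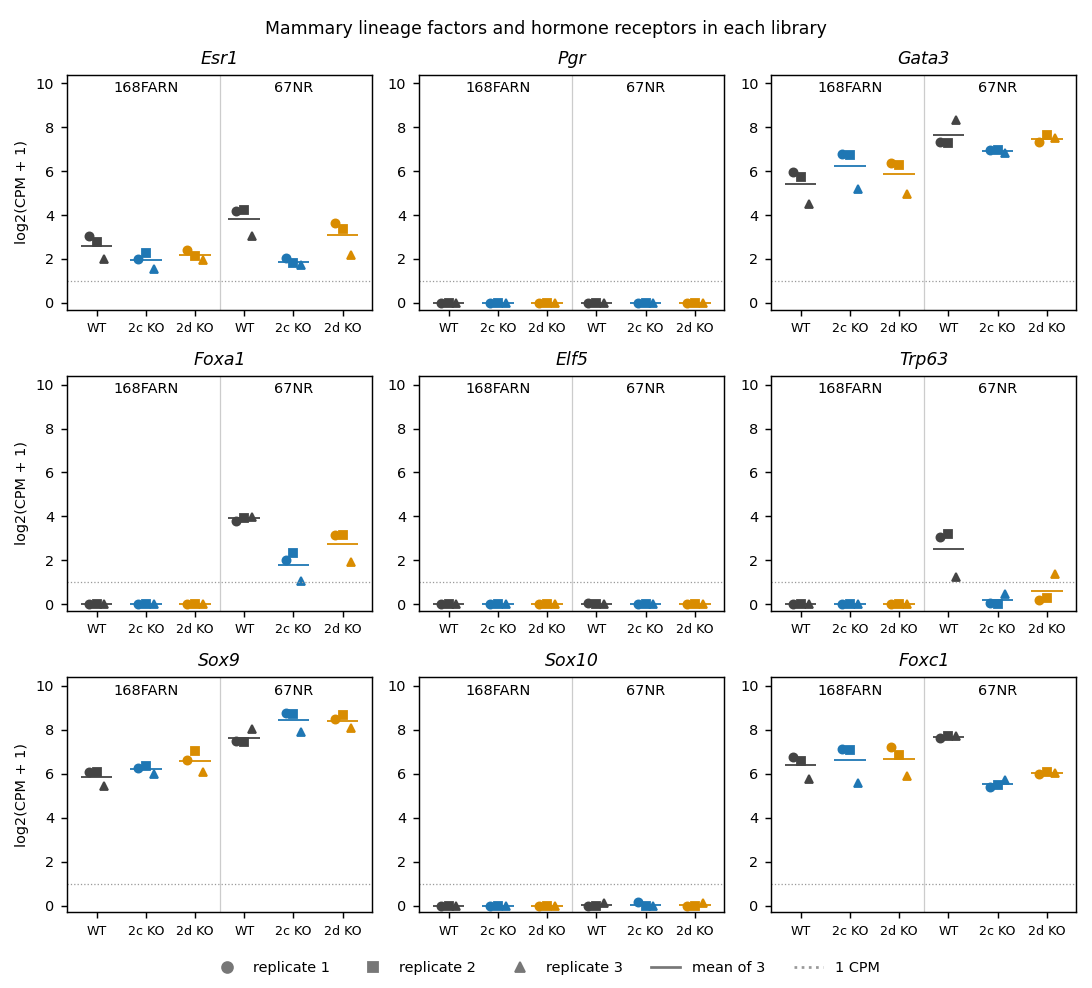
Expression of the 9 genes in every library, one panel per gene, as log2(CPM + 1) on the vertical axis against the 6 groups of line and genotype. Markers give the replicate number, the horizontal line is the mean of 3 libraries and the dotted line is 1 CPM. *Foxa1* and *Trp63* lie at 0 in all 168FARN libraries, and *Pgr*, *Elf5* and *Sox10* lie at or near 0 in every library.

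Levels of different genes were compared per kilobase of exon. In 67NR WT cells *Gata3* (53.3 CPM per kb), *Foxc1* (51.8 CPM per kb) and *Sox9* (49.4 CPM per kb) stood at similar levels, and their libraries overlapped. *Foxa1* at 4.41, *Esr1* at 1.03 and *Trp63* at 0.673 CPM per kb lay well below them. Among 168FARN WT cells the order was *Foxc1* with 21.6, *Sox9* with 14.1, *Gata3* with 11.4 and *Esr1* with 0.392 CPM per kb. In both lines *Esr1* mRNA was therefore scarce beside that of its partner *Gata3*, by CPM per kb.

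Promoter sequences are shown for the members that fell together in *Kmt2c* KO cells of 67NR and whose entry could be matched. RefSeq start sites on GRCm38.p6 matched 6 of the 9 genes, and each window runs from 250 bases before to 50 bases after a start site, 5′ to 3′ on the gene's strand. *Esr1* had windows at 2 start sites, chr10:4611739-4612038 and chr10:4709908-4710207, both on the plus strand. *Gata3* lay at chr2:9878551-9878850 on the minus strand, *Foxa1* at chr12:57546062-57546361 on the minus strand and *Foxc1* at chr13:31806396-31806695 on the plus strand. Capitals mark a match to the FOX motif TGTTTAC, which was searched on both strands.
Esr1, first start site: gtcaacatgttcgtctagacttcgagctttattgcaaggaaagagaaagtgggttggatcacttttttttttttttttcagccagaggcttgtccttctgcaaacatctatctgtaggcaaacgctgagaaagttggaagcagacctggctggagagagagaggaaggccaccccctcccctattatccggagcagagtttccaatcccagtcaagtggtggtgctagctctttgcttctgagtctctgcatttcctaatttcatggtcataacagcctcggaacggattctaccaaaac
Esr1, second start site: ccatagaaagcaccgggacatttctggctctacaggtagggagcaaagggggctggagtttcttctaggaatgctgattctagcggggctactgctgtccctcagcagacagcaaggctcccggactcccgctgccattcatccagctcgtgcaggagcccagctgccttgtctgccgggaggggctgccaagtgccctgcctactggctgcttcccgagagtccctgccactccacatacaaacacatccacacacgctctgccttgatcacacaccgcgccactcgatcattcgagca
Gata3: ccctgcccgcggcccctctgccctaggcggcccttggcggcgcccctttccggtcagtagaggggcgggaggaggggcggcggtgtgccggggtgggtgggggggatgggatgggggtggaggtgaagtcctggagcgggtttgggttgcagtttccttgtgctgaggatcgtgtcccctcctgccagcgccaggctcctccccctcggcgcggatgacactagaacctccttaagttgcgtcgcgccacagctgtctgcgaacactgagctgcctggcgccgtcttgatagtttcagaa
Foxa1: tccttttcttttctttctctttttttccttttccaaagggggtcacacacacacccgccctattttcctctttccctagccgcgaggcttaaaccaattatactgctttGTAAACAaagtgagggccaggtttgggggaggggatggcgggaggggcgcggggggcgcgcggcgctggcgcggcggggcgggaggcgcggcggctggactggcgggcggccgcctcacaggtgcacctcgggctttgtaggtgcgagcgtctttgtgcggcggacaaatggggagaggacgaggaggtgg
Foxc1: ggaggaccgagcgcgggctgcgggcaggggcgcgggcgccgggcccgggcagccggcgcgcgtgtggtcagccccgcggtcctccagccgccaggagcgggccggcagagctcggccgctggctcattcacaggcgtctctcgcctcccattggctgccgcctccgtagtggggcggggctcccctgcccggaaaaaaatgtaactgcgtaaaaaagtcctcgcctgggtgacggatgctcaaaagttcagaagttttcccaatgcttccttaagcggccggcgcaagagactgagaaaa

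The *Foxc1* window held 32 CpG dinucleotides, *Foxa1* 26 and *Gata3* 22, against a median of 7 over 32851 promoter windows of the same length. The *Esr1* windows held 6 and 12. GC content was 67.3% for *Foxc1* and *Gata3*, 62.3% for *Foxa1* and 46.3% and 59.3% for *Esr1*, against a median of 52.7%. The 4 short motifs were searched on both strands, and none contains another. The FOX motif TGTTTAC, present in 3.65% of all windows, was found in reverse in the *Foxa1* window alone of those shown. The GATA motif AGATAA (11.2% of windows), the oestrogen receptor half-site AGGTCA (16.3%) and the SOX motif ACAATG (12.6%) were not among the letters of these windows.

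*Esr1*, which encodes oestrogen receptor alpha, was expressed in all 18 libraries. Replicates 1, 2 and 3 of 67NR WT cells held 17, 18 and 7.33 CPM, and those of *Kmt2c* KO cells held 3.09, 2.48 and 2.32 CPM. The groups did not overlap, and the WT mean of 14.1 ± 5.90 CPM was 5.37 times the *Kmt2c* KO mean of 2.63 ± 0.407 CPM. *Esr1* fell by 2.34 ± 0.47 (SE) on the log2 scale, with adjusted p = 0.00475 in edgeR's quasi-likelihood test after Benjamini-Hochberg adjustment over all genes tested. All adjusted p-values in what follows are from this test unless another is named. The *Kmt2d* KO libraries of 67NR lay between, at 11.5, 9.44 and 3.59 CPM. Each was lower than the WT library of its replicate number, but the groups overlapped, with WT replicate 3 below *Kmt2d* KO replicates 1 and 2. The log2 change was -0.70 ± 0.45 with adjusted p = 0.312. A fit with the replicate number as a block, which compares libraries of the same number, gave -0.74 with adjusted p = 0.0320. Without replicate 3 of every genotype *Esr1* was called in both knockouts of 67NR, at -2.57 (adjusted p = 5.47e-10) and -0.66 (adjusted p = 0.00273). In these bulk cultures, fewer cells of a type and less RNA per cell cannot be told apart.

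Among WT cells *Esr1* was lower in 168FARN than in 67NR. WT libraries held 7.15, 5.93 and 3.0 CPM, *Kmt2c* KO libraries 2.95, 3.87 and 1.91 CPM, and *Kmt2d* KO libraries 4.25, 3.36 and 2.90 CPM. All 6 knockout libraries were lower than the WT library of the same number, while the ranges of the groups overlapped. After *Kmt2c* knockout the log2 change was -0.88 ± 0.40 (adjusted p = 0.874), and under the replicate block it was -0.84 with adjusted p = 0.0333 and without replicate 3 it was -0.92 with adjusted p = 0.00681. The change after *Kmt2d* knockout was -0.59 ± 0.40 (adjusted p = 1).

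*Gata3* encodes the zinc-finger factor on which luminal cell identity depends. Its *Kmt2c* KO libraries lay below WT in 67NR and above their paired WT libraries in 168FARN. The WT libraries of 67NR held 159, 156 and 321 CPM of *Gata3*, the *Kmt2c* KO libraries 125, 123 and 111 CPM, and the *Kmt2d* KO libraries 158, 199 and 180 CPM. The *Kmt2c* KO libraries all lay below the WT libraries, with a log2 change of -0.74 ± 0.27 and adjusted p = 0.0621. WT replicate 3 carried much of this difference. Without it the change was -0.31 (adjusted p = 0.115), without replicate 3 of every genotype it was -0.26 (adjusted p = 0.0701), and without *Kmt2c* KO replicate 1, 2 or 3 it was -0.78, -0.76 and -0.68 (adjusted p = 0.114, 0.134 and 0.150), so none of these was called. The *Kmt2d* KO change was -0.17 ± 0.27 (adjusted p = 0.716). It became 0.26 when replicate 3 of every genotype was left out.

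*Gata3* in 168FARN measured 60.8, 52.9 and 22.0 CPM in WT cells. *Kmt2c* KO libraries held 110, 105 and 35.5 CPM and *Kmt2d* KO libraries 80.8, 77.9 and 29.7 CPM. Every knockout library was above the WT library of its own number, and replicate 3 was the lowest library of each genotype, so the groups overlapped. Without the block the *Kmt2c* KO change was 0.89 ± 0.57 (adjusted p = 1), and with it 0.85 (adjusted p = 0.000281), or 0.94 without replicate 3 (adjusted p = 3.95e-05). The *Kmt2d* KO change was 0.49 ± 0.57 (adjusted p = 1) and 0.48 with the block (adjusted p = 0.0138), which is under the fold change of 0.6 used for calls. *Gata3* shares 77 exon bases with *9230102O04Rik* on its own strand and 155 with *Gm13256* on the other, and its counts are uncertain to that extent.

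*Foxa1* encodes a pioneer factor that opens chromatin for the oestrogen receptor. *Foxa1* stood at 13, 14.4 and 14.7 CPM in the WT libraries of 67NR, at 3.08, 4.06 and 1.08 CPM after *Kmt2c* knockout and at 7.82, 7.88 and 2.84 CPM after *Kmt2d* knockout. The WT libraries were above all knockout libraries, by 5.12 times the mean of *Kmt2c* KO and 2.27 times the mean of *Kmt2d* KO. *Foxa1* fell by 2.26 ± 0.51 on the log2 scale in the *Kmt2c* knockout (adjusted p = 0.00808), and the change was -1.86 without replicate 3 (adjusted p = 5.53e-08). In the *Kmt2d* knockout the change was -1.10 ± 0.49 (adjusted p = 0.147), against -1.28 with the block (adjusted p = 0.0111), -0.73 without replicate 3 of every genotype (adjusted p = 0.00194) and -1.11 by DESeq2 (adjusted p = 0.0777).

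*Trp63*, the basal factor, was expressed in 67NR WT cells at 7.41, 8.12 and 1.40 CPM, from 627, 553 and 61 counts. In *Kmt2c* KO cells the counts were 4, 0 and 16, or 0.0522, 0 and 0.376 CPM, so all 3 libraries lay below every WT library. *Kmt2d* KO libraries had 8, 12 and 64 counts, or 0.148, 0.221 and 1.61 CPM. Replicate 3 was thus the lowest WT library and the highest knockout library, and WT and *Kmt2d* KO overlapped there alone. The fitted log2 change was -5.37 ± 1.40 for the *Kmt2c* knockout (adjusted p = 0.0161) and -3.06 ± 1.21 for the *Kmt2d* knockout (adjusted p = 0.105). Without replicate 3 of every genotype the first was -7.94 (adjusted p = 4.39e-11). The second passed with the block (-3.86, adjusted p = 0.0483), without *Kmt2d* KO replicate 3 (-4.83, adjusted p = 0.0317), without WT replicate 3 (-3.53, adjusted p = 0.0568) and without replicate 3 of every genotype (-5.31, adjusted p = 8.93e-10). The fitted folds of *Trp63* rest on few knockout counts and are uncertain in size.

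*Sox9*, which encodes an HMG-box factor of progenitor cells and of cartilage, was higher in both knockouts of 67NR. Its level in 67NR was 178, 173 and 261 CPM in the WT libraries, compared with 430, 422 and 237 CPM after *Kmt2c* knockout and 363, 405 and 267 CPM after *Kmt2d* knockout. Replicate 3 was the highest WT library and the lowest library of each knockout. *Kmt2d* KO and WT nevertheless did not overlap, whereas *Kmt2c* KO replicate 3 fell below WT replicate 3. The log2 changes, *Kmt2c* knockout first, were 0.92 ± 0.28 (adjusted p = 0.0328) and 0.84 ± 0.28 (adjusted p = 0.0613). Without replicate 3 of every genotype they were 1.36 (adjusted p = 6.33e-09) and 1.21 (adjusted p = 5.74e-08).

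The calls of *Sox9* in 67NR were lost when some single libraries were left out. For *Kmt2c* KO these were *Kmt2c* KO replicate 1 (0.77, adjusted p = 0.104) and 2 (0.79, adjusted p = 0.109) and WT replicate 1 (0.82, adjusted p = 0.103) and 2 (0.80, adjusted p = 0.103). For *Kmt2d* KO they were *Kmt2d* KO replicate 1 (0.80, adjusted p = 0.142) and 2 (0.71, adjusted p = 0.171) and WT replicate 1 (0.76, adjusted p = 0.169) and 2 (0.73, adjusted p = 0.161). DESeq2 with the block, added after seeing the data, did not call *Sox9* in *Kmt2d* KO cells of 67NR either (0.79, adjusted p = 0.143). 168FARN held less *Sox9*, with 66.3, 66.1 and 42.9 CPM in the WT libraries, 75.9, 81.6 and 62.1 CPM after *Kmt2c* knockout and 99.4, 129 and 66.6 CPM after *Kmt2d* knockout. All 6 pairs were higher in the knockout, and the *Kmt2d* KO libraries lay above all WT libraries. The *Kmt2d* KO change was 0.77 ± 0.28 (adjusted p = 0.711), against 0.75 with the block (adjusted p = 0.00276), and the *Kmt2c* KO change was 0.33 ± 0.28 (adjusted p = 1).

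*Foxc1* encodes a forkhead factor, and its 67NR libraries lay close together within each group. The WT libraries held 194, 213 and 214 CPM, the *Kmt2c* KO libraries 41.7, 44.1 and 51.6 CPM, and the *Kmt2d* KO libraries 62.0, 65.8 and 64.3 CPM. The 3 groups did not overlap, and WT was 4.51 times *Kmt2c* KO and 3.23 times *Kmt2d* KO. Its log2 changes were -2.09 ± 0.14 (adjusted p = 8.30e-06) and -1.61 ± 0.13 (adjusted p = 4.84e-05), and both stayed called under each alternative that was run, with adjusted p at most 0.000183 and 0.000749. Without replicate 3 they were -2.16 and -1.59. The 168FARN libraries spread more widely, from 108, 96.5 and 53.5 CPM of *Foxc1* in WT cells to 140, 136 and 47.4 CPM after *Kmt2c* knockout and 151, 117 and 59.2 CPM after *Kmt2d* knockout. Here 5 of 6 pairs were higher in the knockout, and the log2 changes were 0.33 ± 0.49 and 0.36 ± 0.49 (adjusted p = 1 for both).

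**Figure D2:**
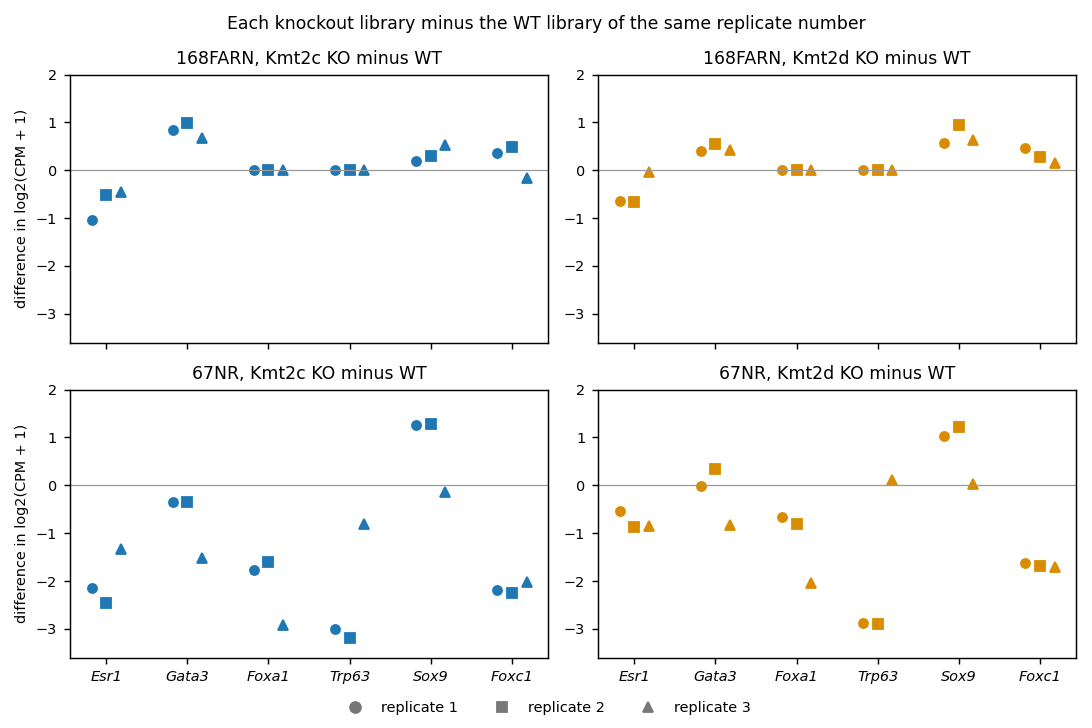
Difference in log2(CPM + 1) between each knockout library and the WT library of the same replicate number, for the 6 expressed members in each line and knockout. Each point is 1 pair and the line at 0 marks no difference. *Esr1* lies below 0 in all 12 pairs, *Gata3* lies above 0 in the 6 pairs of 168FARN, *Foxc1* lies below 0 in the 6 pairs of 67NR, and *Foxa1* and *Trp63* were 0 against 0 in 168FARN.

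Ordered by mean CPM over the 6 groups, *Esr1* ran from 67NR WT (14.1) through 67NR *Kmt2d* KO (8.18), 168FARN WT (5.36), 168FARN *Kmt2d* KO (3.51) and 168FARN *Kmt2c* KO (2.91) to 67NR *Kmt2c* KO (2.63), and no neighbours in this order were free of overlap. *Gata3* ran from 67NR WT (212) and *Kmt2d* KO (179), which overlapped, to 67NR *Kmt2c* KO (120), apart from both neighbours, and then to the overlapping 168FARN groups *Kmt2c* KO (83.7), *Kmt2d* KO (62.8) and WT (45.2). *Sox9* was highest in the overlapping 67NR knockouts (363 and 345), followed by 67NR WT (204), apart from both neighbours, and by the overlapping 168FARN *Kmt2d* KO (98.2), *Kmt2c* KO (73.2) and WT (58.4). *Foxc1* in 67NR WT (207) stood apart from 168FARN *Kmt2d* KO (109), *Kmt2c* KO (108) and WT (86.2), which overlapped each other and 67NR *Kmt2d* KO (64.0), and 67NR *Kmt2c* KO (45.8) was lowest.

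The counts of members called show how these results sum. Calls needed both an adjusted p below 0.1 and a log2 change of more than 0.6 in either direction. In *Kmt2c* KO against WT cells of 67NR, 6 of the 9 members passed the filter on low counts and all 6 were called, 1 higher and 5 lower, where 35.3% of 13665 genes tested were called, 17.9% higher and 17.4% lower. In *Kmt2d* KO cells of 67NR 2 of the 6 were called, *Foxc1* lower and *Sox9* higher, beside 25.5% of all genes (13.9% higher and 11.6% lower). With the replicate block the count was 5 of 6 beside 32.7%, since *Esr1*, *Foxa1* and *Trp63* were then called as lower. Without replicate 3 the counts were 5 and 5 of 6 in the *Kmt2c* KO and *Kmt2d* KO comparisons, beside 44.2% and 35.9% of all genes. *Trp63* passed the filter in 67NR through libraries in which it was high, while *Foxa1* had at least 1.08 CPM in every 67NR library. Members that did not pass were not tested, so these counts do not speak for all 9 members.

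In 168FARN, 4 of the 9 members passed the filter. None of the 4 was called by edgeR in *Kmt2c* KO cells, where 0.359% of 12253 genes were, or in *Kmt2d* KO cells, where 0.286% were. At an unadjusted p under 0.05 there were 0 and 1, the latter being *Sox9*, and DESeq2 called 0 in both. With the replicate block 2 were called in *Kmt2c* KO cells (*Esr1* lower and *Gata3* higher) beside 7.23% of all genes, and 1 in *Kmt2d* KO cells (*Sox9* higher) beside 5.9%. Without replicate 3 the same 2 members were called in *Kmt2c* KO cells, and *Esr1* (-0.72, adjusted p = 0.0392) and *Sox9* (0.82, adjusted p = 0.000416) in *Kmt2d* KO cells, beside 14.5% and 11% of all genes.

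**Figure D3:**
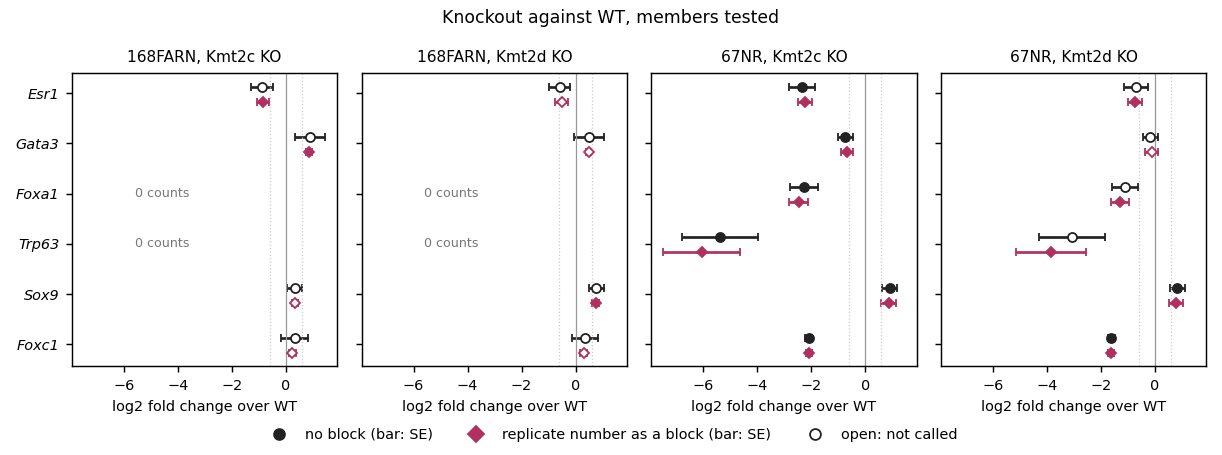
Log2 fold change with its SE for *Esr1*, *Gata3*, *Foxa1*, *Trp63*, *Sox9* and *Foxc1* in the 4 comparisons of a knockout with WT. Circles are edgeR fits without and diamonds fits with the replicate number as a block, filled where called, and dotted lines mark the fold change of 0.6. In *Kmt2c* KO cells of 67NR all 6 circles are filled, and in 168FARN no circle is.

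The 2 knockouts were compared directly with each other. In 67NR *Esr1*, *Foxa1*, *Foxc1*, *Gata3* and *Trp63* had higher means in *Kmt2d* KO than in *Kmt2c* KO cells, by 1.63 ± 0.47, 1.16 ± 0.50, 0.48 ± 0.13, 0.57 ± 0.27 and 2.31 ± 1.33 on the log2 scale. None of the 6 members tested was called by edgeR, where 1.41% of all genes were, although 3 (*Esr1*, *Foxa1* and *Foxc1*) had an unadjusted p under 0.05. *Esr1* had an adjusted p of 0.210. It was called by DESeq2 (1.61, adjusted p = 0.0202), with the block (1.5, adjusted p = 0.00649) and without *Kmt2d* KO replicate 3 (1.99, adjusted p = 0.0651). *Foxa1* was called with the block (1.18, adjusted p = 0.0689), which made 2 members beside 7.29% of all genes. Without replicate 3 *Esr1* (1.90), *Foxa1* (1.13) and *Trp63* (2.63) were called (adjusted p = 8.93e-07, 0.000245 and 0.0185), beside 12.6% of all genes. In 168FARN edgeR called 0 of the 4 members between the knockouts, where 0.253% of all genes were called. At an unadjusted p under 0.05 there were 0, and DESeq2 called 0.

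The WT cells of the 2 lines differed in all 4 members that both lines expressed. *Esr1* was 2.63 times, *Gata3* 4.69 times, *Sox9* 3.49 times and *Foxc1* 2.40 times as high in 67NR as in 168FARN by mean CPM. The log2 differences were 1.40 ± 0.45 (adjusted p = 0.0235), 2.23 ± 0.48 (adjusted p = 0.00167), 1.80 ± 0.30 (adjusted p = 0.000174) and 1.26 ± 0.38 (adjusted p = 0.0150). Without replicate 3 they were 1.39, 1.44, 1.38 and 0.96, all called, beside 54.3% of all genes. The *Esr1* difference was not called without 168FARN WT replicate 3 (1.05, adjusted p = 0.109). *Foxa1* was at least 141-fold and *Trp63* at least 56.8-fold higher in 67NR, with 168FARN set at 0.0994 CPM, which is 3 counts in the smallest of its WT libraries. The calls of the other 4 stood beside 39.2% of the 13882 genes tested over both lines. *Foxa1* and *Trp63*, with 0 counts in 168FARN, passed the filter through 67NR alone, and nothing is read from their calls.

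Whether a knockout acted differently in the 2 lines was tested as an interaction. For *Foxc1* the log2 change in *Kmt2c* KO cells was lower in 67NR than in 168FARN, with an interaction of -2.5 ± 0.53 (adjusted p = 0.00527), and that in *Kmt2d* KO cells gave -2.03 ± 0.53 (adjusted p = 0.0285). The latter was not called without 168FARN *Kmt2d* KO replicate 1 (-1.62, adjusted p = 0.116). *Foxc1* was the only member called for *Kmt2c* KO beside 16% of all genes and the only one for *Kmt2d* KO beside 10.6%. The *Kmt2c* KO interaction was -1.71 ± 0.65 for *Gata3* (adjusted p = 0.112) and -1.54 ± 0.64 for *Esr1* (adjusted p = 0.143), and with the block both were called, at -1.61 (adjusted p = 0.000152) and -1.48 (adjusted p = 0.00374), which made 3 members beside 34.6% of all genes. DESeq2 called both as well. Without replicate 3 they were -1.27 and -1.72 and both were called, as was *Foxc1* at -2.67 and, for *Kmt2d* KO, at -2.04, where 38% and 32.5% of all genes were called. With the block *Gata3* was also called for *Kmt2d* KO (-0.66, adjusted p = 0.0707), which made 2 beside 28.4%. *Gata3* without 168FARN *Kmt2c* KO replicate 3 (-1.99, adjusted p = 0.0408) and *Esr1* without 67NR WT replicate 3 (-1.85, adjusted p = 0.0637) were called too. For *Sox9* the interactions were 0.51 ± 0.41 and 0.01 ± 0.41 (adjusted p = 0.535 and 1), and without replicate 3 the first was 1.03 (adjusted p = 5.18e-05). No interaction exists for *Foxa1* and *Trp63*, which had no counts in 168FARN.

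Genes of the luminal and basal programmes were then counted from lists, first those that mark luminal epithelium. All 12 luminal identity genes were called lower in *Kmt2c* KO cells of 67NR and 10 of 12 in *Kmt2d* KO cells, beside 17.4% and 11.6% of all genes. With the replicate block all 12 were called lower in both, and with 1 library left out 11 to 12 and 8 to 11 were. Over these 12 genes the median log2 changes were -2.02 and -1.36, against -0.02 and -0.02 over all genes tested. Among them *Cdh1*, which encodes E-cadherin, changed by -2.80 (adjusted p = 1.10e-05) and -1.36 (adjusted p = 0.000850), and *Grhl2*, a regulator of epithelial junction genes, by -1.71 (adjusted p = 3.79e-05) and -1.02 (adjusted p = 0.00122). The summed level of the list was 3750 to 5710 CPM in 67NR WT libraries, 724 to 1119 CPM in *Kmt2c* KO and 1233 to 2252 CPM in *Kmt2d* KO libraries. In 168FARN 2 of the 12 genes reached 1 CPM in WT cells and 3 in each knockout, and *Epcam* had 0 counts in all 9 libraries. The summed list was 102 to 400 CPM there, and *Krt8* at 217 ± 156 CPM in WT made most of it. Of the 12 genes 4 were tested there and edgeR called 0 in either knockout, with 1 in each at an unadjusted p under 0.05, while DESeq2 called 1 as lower in each. Of all genes edgeR called 0.359% and 0.286%. With the block it called 1 of the 4 lower in each, beside 7.23% and 5.9%. Without replicate 3 it called 2 higher and 1 lower after *Kmt2c* knockout, and 1 higher and 1 lower after *Kmt2d* knockout, beside 14.5% and 11%.

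Of the hormone-sensing luminal genes tested, among them targets and partners of the receptors, more were called higher than lower in the knockouts of 67NR. Of all genes 17.9% and 13.9% were called higher there. In 67NR 6 of 12 were tested, of which 4 rose and 1 fell after *Kmt2c* knockout and 4 rose and 0 fell after *Kmt2d* knockout, with medians of 1.70 and 1.83. *Tbx3*, which encodes a T-box factor of mammary development, rose from a WT mean of 2.15 CPM to 115 and 68.1 CPM in the respective knockouts (log2 changes 5.83 and 5.06, adjusted p = 2.68e-06 and 7.54e-06). *Greb1*, a gene induced by oestrogen in breast cells, rose by 2.49 and 1.80 (adjusted p = 0.00371 and 0.0260) but stayed low, from 0.173 CPM in the WT mean to 0.925 and 0.579 CPM. *Areg*, the oestrogen-induced growth factor amphiregulin, rose by 1.00 and 1.87 (adjusted p = 0.0160 and 0.00116). *Prlr*, the prolactin receptor, rose by 2.41 in both (adjusted p = 0.0181 and 0.0262), from 0.179 to 0.883 and 0.890 CPM. With so little mRNA in WT cells, *Greb1* and *Prlr* may have passed the filter on low counts through the knockout libraries, in which they were high. The counts of this list are therefore not read as a direction of its genes. In *Kmt2c* KO cells of 168FARN *Tbx3* alone of 5 tested was called, with a change of 1.04 (adjusted p = 0.0467), beside 0.359% of all genes. In *Kmt2d* KO cells of 168FARN edgeR called 0, beside 0.286%, and DESeq2 called 1 as higher. With the block 2 were called higher in each knockout of 168FARN, beside 7.23% and 5.9%. Without replicate 3 there were again 2 higher in each, and 1 lower after *Kmt2c* knockout, beside 14.5% and 11%.

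**Figure D4:**
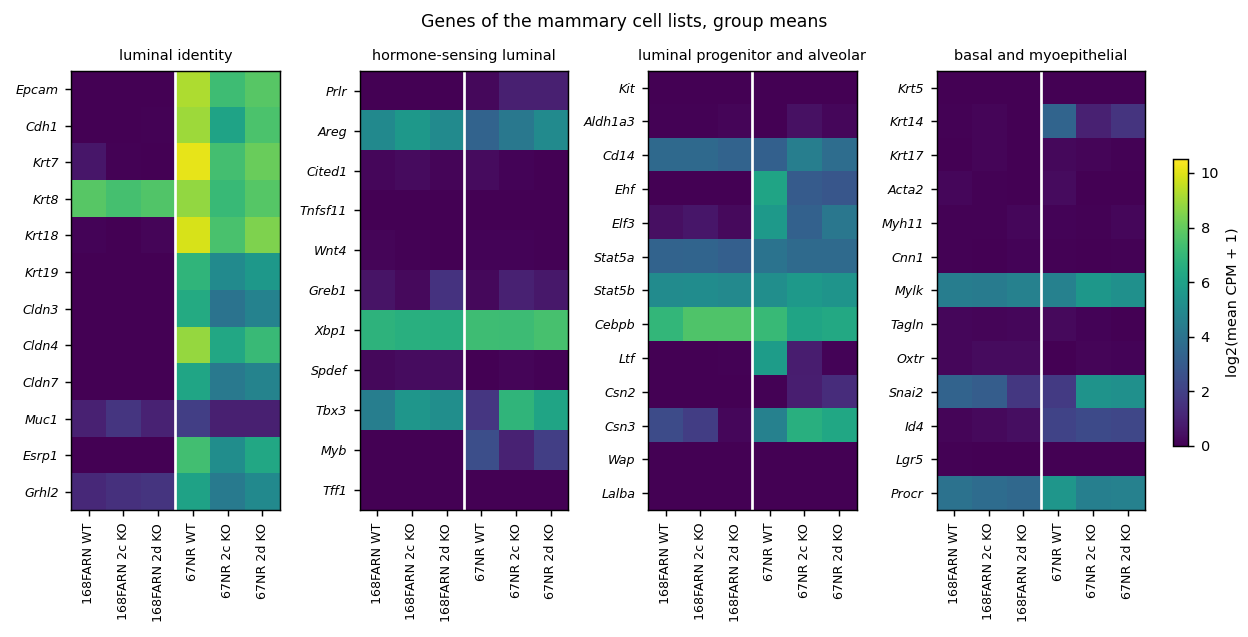
Mean expression, as log2(mean CPM + 1) on a colour scale, of the luminal identity, hormone-sensing luminal (11 of its 12), luminal progenitor and alveolar, and basal and myoepithelial genes in the 6 groups of line and genotype, 3 libraries each. The luminal identity genes are brightest, that is highest, in 67NR WT cells and near 0 for most genes in 168FARN.

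Of the other nuclear hormone receptors 14 were tested in 67NR. Of these, 1 rose and 2 fell after *Kmt2c* knockout, beside 35.3% of all genes called. After *Kmt2d* knockout 1 rose and 1 fell, beside 25.5%. The glucocorticoid receptor gene *Nr3c1* rose by 1.45 and 1.41 (adjusted p = 5.87e-05 and 0.000121), and the orphan receptor gene *Nr2f1* changed by -1.01 and -0.98 (adjusted p = 0.045 and 0.066). The mineralocorticoid receptor gene *Nr3c2* fell by 2.77 in *Kmt2c* KO cells (adjusted p = 0.0347). Of 14 coregulators of steroid receptors edgeR called 0 in either knockout of 67NR, with 1 and 2 at an unadjusted p under 0.05 and 0 by DESeq2, and their medians were -0.19 and -0.15. In 168FARN edgeR called none of the 13 receptors or 14 coregulators, with 0 and 1 receptors and 1 and 1 coregulators at an unadjusted p under 0.05, and DESeq2 called 1 receptor, higher in *Kmt2d* KO cells. With the block edgeR also called 1 receptor higher in *Kmt2d* KO cells, beside 5.9% of all genes.

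The luminal progenitor and alveolar list, to which *Elf5* relates, was split in 67NR. Of 10 genes tested 4 were higher and 4 lower in each knockout, beside 35.3% and 25.5% of all genes called. The milk protein gene *Csn3* rose by 2.15 and 1.78 (adjusted p = 5.89e-05 and 0.000302), while the ETS factor gene *Ehf*, a relative of *Elf5*, changed by -3.20 and -3.46 (adjusted p = 0.000349 and 0.000412). The related *Elf3* changed by -2.43 and -1.49 (adjusted p = 5.65e-05 and 0.00142), and *Ltf*, which encodes lactoferrin, also fell, with fitted changes of -6.10 and -9.54 (adjusted p = 0.000636 and 0.000288) that rest on few knockout counts. In 168FARN *Csn3* was the 1 called of 6 tested, lower in *Kmt2d* KO cells by a log2 change of -4.65 (adjusted p = 0.0529).

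Genes that p63 controls in basal cells were more often lower than higher in 67NR, where 17.4% and 11.6% of all genes were called lower. Of 9 tested in 67NR, 2 rose and 6 fell after *Kmt2c* knockout, and 2 rose and 4 fell after *Kmt2d* knockout, or 7 fell with the block and 2 without 67NR WT replicate 1, with medians of -1.33 and -0.82. *Perp*, a desmosome gene, changed by -2.32 and -0.82 (adjusted p = 9.62e-06 and 0.00427). The hemidesmosome genes *Col17a1* and *Dst* went the other way, by 3.84 and 0.84 in *Kmt2c* KO and 2.96 and 0.65 in *Kmt2d* KO cells (adjusted p = 0.0025, 0.00439, 0.0125 and 0.0218). The basal and myoepithelial list had 5 of 13 genes tested in 67NR. *Snai2* rose by 4.16 and 4.02 (adjusted p = 1.77e-05 and 3.66e-05), *Procr* changed by -0.90 and -0.83 (adjusted p = 0.022 and 0.042), and *Krt14* changed by -3.22 in *Kmt2c* KO cells (adjusted p = 0.0532).

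Among 20 relatives of the members, 11 were tested in 67NR, of which 4 rose and 3 fell after *Kmt2c* knockout, against 3 and 3 after *Kmt2d* knockout. The shares of all genes called were 35.3% and 25.5%. *Foxc2*, the paralogue of *Foxc1*, was lower with it, by log2 changes of -2.55 and -1.38 (adjusted p = 3.72e-05 and 0.00184). *Sox5*, which acts with *Sox9* in cartilage, rose by 4.32 and 3.66 (adjusted p = 3.58e-05 and 0.000144), and *Sox4* changed by -1.19 and -1.08 (adjusted p = 0.00598 and 0.0144). Of the cartilage genes that SOX9 activates 4 of 12 were tested in 67NR and 2 were higher in each knockout, *Sox5* and the collagen gene *Col2a1* (1.54 and 1.37, adjusted p = 0.0292 and 0.0619). The glial and melanocyte genes that SOX10 activates had 4 of 10 tested, with *Mitf* higher (1.17, adjusted p = 0.0885) and *Erbb3* lower (-1.14, adjusted p = 0.0779) in *Kmt2c* KO cells. In *Kmt2d* KO cells edgeR called 0 of them, with 1 at an unadjusted p under 0.05, and DESeq2 called 1.

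In 168FARN edgeR without the block called 0 of the basal (3 tested), p63 (6), SOX9 (5) and SOX10 (3) lists and of the relatives (11) in either knockout. Of all genes 0.359% and 0.286% were called. At an unadjusted p under 0.05 there were 0, 1, 1, 0 and 0 after *Kmt2c* knockout and 1, 0, 1, 0 and 1 after *Kmt2d* knockout. DESeq2 called 1 basal gene as lower and 1 SOX9 gene as higher, both after *Kmt2d* knockout. With the block edgeR called 1 SOX9 gene and 2 relatives higher after *Kmt2c* knockout, and 1 p63 gene in each direction. After *Kmt2d* knockout it called 2 SOX9 genes, 1 SOX10 gene and 2 relatives higher and 1 basal gene lower. Of all genes 7.23% and 5.9% were called. Without replicate 3 the SOX9 genes called higher were 2 and 3, and 1 SOX10 gene was lower after *Kmt2c* knockout, beside 14.5% and 11%.

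Markers of other cell types moved beside these results in 67NR, where 35.3% and 25.5% of all genes were called. Of 9 fibroblast markers 8 were tested and 4 were higher in each knockout, and the summed level was 14.2 to 22.2 CPM for the WT libraries, 132 to 221 CPM after *Kmt2c* knockout and 99.2 to 150 CPM after *Kmt2d* knockout. *Pdgfra* rose by 3.84 and 3.28 (adjusted p = 1.55e-05 and 5.41e-05) and *Dcn* by 4.10 and 3.90 (adjusted p = 0.00152 and 0.00318) on the log2 scale, and *Thy1* was at or near 0. Of 5 endothelial markers 2 of 3 tested were higher in each knockout, with summed levels of 0.505 to 0.735 CPM in WT libraries and 1.97 to 2.5 and 1.38 to 2.03 CPM in the knockouts. Of 7 immune markers 3 were tested, of which 1 rose after *Kmt2c* knockout and 1 rose and 1 fell after *Kmt2d* knockout, with summed levels of 22.7 to 40.6, 23.2 to 70.1 and 28.7 to 81.5 CPM and *Ptprc*, the pan-leukocyte marker, at or near 0. In 168FARN the summed fibroblast level was 81.9 to 217 CPM over all groups, *Col3a1* fell in *Kmt2c* KO cells by 2.74 (adjusted p = 0.0295) and the endothelial marker *Cdh5* was higher by 2.61 (adjusted p = 0.0537). The part of other cell types in the members' results was not tested.

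Some calls of the listed genes were lost when 1 library was left out. In 168FARN this held for *Tbx3* without *Kmt2c* KO replicate 1 or 2 or any WT library (adjusted p = 0.129 to 0.298), for *Csn3* without *Kmt2d* KO replicate 1 or 2 or any WT library (0.113 to 0.302), and for *Col3a1* and *Cdh5* without *Kmt2c* KO replicate 1 or 2 or WT replicate 1 or 2 (0.124 to 0.172 and 0.260 to 0.329). In *Kmt2c* KO cells of 67NR it held for *Krt14* without *Kmt2c* KO replicate 1 or 2 or WT replicate 3 (0.153 to 0.226), *Nr2f1* without *Kmt2c* KO replicate 1 or 2 or WT replicate 1 (up to 0.146), *Nr3c2* without *Kmt2c* KO replicate 2 (0.117) and *Col2a1* without WT replicate 2 (0.102). *Mitf* was lost there without *Kmt2c* KO replicate 1 or 2 or any WT library (0.107 to 0.225), *Erbb3* without *Kmt2c* KO replicate 2 or 3 or WT replicate 1 or 2 (0.124 to 0.194), and *Procr* without WT replicate 3, where the log2 change was -0.54. In *Kmt2d* KO cells of 67NR *Procr* was lost without *Kmt2d* KO replicate 1 or 2 (0.121 and 0.131) or WT replicate 3 (log2 change -0.47), *Nr2f1* without *Kmt2d* KO replicate 1 or 2 or WT replicate 1 or 2 (0.131 to 0.209), *Col2a1* without *Kmt2d* KO replicate 1 or 3 or WT replicate 1 or 2 (0.142 to 0.176), and *Dst* without *Kmt2d* KO replicate 2 or WT replicate 3 (log2 changes 0.55 and 0.56).

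The genes whose levels over the 18 libraries were most like each member are given as a description. By Pearson's r of log2(CPM + 1) over 12493 genes, *Esr1* was most like *Tm9sf2* (0.956), *9230110C19Rik* (0.938) and *Nr2c1* (0.936), and among those most like *Gata3* were *Agbl5* (0.970) and *Coro2a* (0.956). *Foxa1* was most like *Paqr8* (0.996), *Slc16a10* (0.995) and *Shroom2* (0.995), and *Trp63* was most like *Hhip* (0.987), *Angptl7* (0.983) and *Gm5662* (0.980). Among the genes most like *Sox9* were *Adam8* (0.951) and *Gimap8* (0.949), and *Foxc1* was most like *Tead2* (0.947), *Sned1* (0.930) and *Mtss1l* (0.929). The libraries share their line, genotype and collection. Between members r ranged from -0.18 for *Sox9* and *Foxc1* to 0.80 for *Gata3* and *Sox9*.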

How the data were processed

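The authors deposited read counts per gene symbol for each line, made with STAR inside the VIPER pipeline on mm9 from strand-specific poly(A) libraries. Whether strand was used in counting is not given in the sources used here. Groups came from the sample labels, and 0 columns were left without a sample. In 67NR 91.2% to 96.2% of counts from 1 to 20 were even, against 39.5% to 47.2% in 168FARN, so a read pair may have been counted as 2 there.

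The main test was edgeR's quasi-likelihood test (edgeR 4.0.16, limma 3.58.1, R 4.3.3) with TMM scaling, robust dispersions and filterByExpr, fitted over all genes of the 9 libraries of a line, or of all 18 libraries for differences between lines (24333 symbols in both tables). Genotype was the only factor, as in the study. DESeq2 1.42.0, a stricter threshold, no filter, a replicate block and left-out libraries were alternatives. EdgeR with and without the block, and DESeq2 without it, were first checked on simulated counts of *Kmt2c* KO against WT within each line. The simulated counts held no effect of replicate 3, and the other comparisons were not simulated.

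Replicate numbers paired the samples: libraries of the same number in different genotypes deviated together from their group means, with correlations of 0.75 to 0.93 in 168FARN and 0.49 to 0.83 in 67NR. Replicates 1 and 2 of different genotypes also correlated, at 0.72 to 0.82 and 0.40 to 0.73, so the block mainly separates replicate 3 from the other two. The SE of a log2 change is its size divided by the square root of F. Exon lengths and overlaps came from an mm9 gene annotation, promoters from RefSeq. From each list at most 4 called genes per comparison were named, by smallest p, or the 2 with the highest CPM where none was called. Genes most like a member were the 3 with the highest r. Some genes that these rules name are not reported here. The members and lists were chosen with earlier results of these data known. Tables and plots were made with Python 3.11.15, pandas 2.3.3, numpy 2.4.6 and matplotlib 3.10.9.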

Additional observations from a re-analysis of the deposited data

Results flagged for a closer look

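The knockout effect on *Foxc1* differed between the 2 lines by the test of the difference itself. In *Kmt2c* KO cells the difference between lines in its log2 change was -2.5 ± 0.53 (adjusted p = 0.00527), from a mean of 207 ± 10.8 CPM in 67NR WT to 45.8 ± 5.15 CPM, and from 86.2 ± 28.9 to 108 ± 52.4 CPM in 168FARN. In *Kmt2d* KO cells it was -2.03 ± 0.53 (adjusted p = 0.0285), from the same WT means to 64.0 ± 1.89 CPM in 67NR and 109 ± 46.2 CPM in 168FARN. The latter was not called without 168FARN *Kmt2d* KO replicate 1 (-1.62, adjusted p = 0.116). For *Kmt2c* KO, *Esr1* (-1.48, adjusted p = 0.00374) and *Gata3* (-1.61, adjusted p = 0.000152) were called with the replicate block, and by DESeq2, and *Sox9* (1.03, adjusted p = 5.18e-05) without replicate 3. For *Foxc1* all 6 pairs of 67NR were lower in the knockout, against 1 of 6 in 168FARN. Both *Foxc1* differences set each knockout against the same WT libraries, and line, count table and sequencing run cannot be told apart.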

How the results depend on the processing

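In *Kmt2c* KO cells of 67NR the number of members called (6) was 4 to 6 under all alternatives, beside 27.3% to 44.2% of genes. Between the WT lines the number (6) was 5 or 6, beside 29.3% to 54.3% of all genes. The latter number includes *Foxa1* and *Trp63*, which passed the filter through 67NR alone and from whose calls nothing is read. Other numbers moved more. With the replicate block it went from 0 to 2 and from 0 to 1 for *Kmt2c* KO and *Kmt2d* KO in 168FARN, from 2 to 5 for *Kmt2d* KO in 67NR, from 0 to 2 between the knockouts of 67NR, and from 1 to 3 and 1 to 2 for the *Kmt2c* KO and *Kmt2d* KO effects between lines. Without replicate 3 these 6 numbers were 2, 2, 5, 3, 4 and 1, beside 14.5%, 11%, 35.9%, 12.6%, 38% and 32.5% of all genes. DESeq2 gave 1 between the knockouts of 67NR, beside 3.2% of all genes, and 3 for the *Kmt2c* KO effect between lines, beside 15.1%. DESeq2 with the block, an alternative added after seeing the data, gave 2, 1, 4, 2, 3 and 2, beside 5.33%, 4.51%, 26.6%, 6.65%, 27.4% and 22.5%. For *Kmt2d* KO in 67NR the stricter threshold gave 1 and the fit on only its 6 libraries 4, each beside 22.8% of all genes. Leaving out 1 library gave 0 in both comparisons of 168FARN, beside 0% to 0.458% of all genes. It gave 1 to 3 for *Kmt2d* KO in 67NR, beside 20% to 29.3%, and 0 to 1 between its knockouts, beside 0.302% to 1.51%. For the *Kmt2c* KO and *Kmt2d* KO effects between lines it gave 1 to 2, beside 12% to 18.4%, and 0 to 1, beside 7.37% to 11%. The cause was not tested.

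Log2 changes that changed sign were small. *Foxc1* between the 168FARN knockouts (0.03) ran from -0.33 to 0.33 with libraries left out. *Gata3* after *Kmt2d* knockout in 67NR (-0.17) ran from -0.34 to 0.26. *Sox9* between the 67NR knockouts (-0.08) ran from -0.31 to 0.083. For the *Kmt2d* KO effect between lines *Esr1* (-0.18) ran from -0.49 to 0.21, and *Sox9* (0.01) from -0.14 to 0.36, with -0.012 under the block and -0.00089 by DESeq2 with the block. In all, 22 refitted log2 changes of members reversed, 47 gained a call, 19 lost one, and 562 kept both their direction and their side of the threshold. Halving the 67NR counts, also added after seeing the data, added a call of *Trp63* in *Kmt2d* KO cells. Counts of 0 leave up to 0.212 CPM undetected in the shallowest library of 168FARN, and the labels do not say what sets replicate 3 apart.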

Other observations

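A receptor and a factor related to the members were higher in 168FARN than in 67NR. *Thrb*, the thyroid hormone receptor beta gene, was at 5.62 ± 0.996, 5.61 ± 1.07 and 11.4 ± 2.35 CPM (SD, n = 3) in 168FARN for WT, *Kmt2c* knockout and *Kmt2d* knockout respectively, and had a mean of 0.0153 CPM in 67NR WT cells and 0 counts in its knockouts. *Sox2*, a relative of *Sox9* and *Sox10* known from stem cells, was at 69.3 ± 3.99, 89.9 ± 25.2 and 104 ± 10.9 CPM in the same groups of 168FARN, with a mean of 0.0306 CPM in 67NR WT cells and 0 counts in its knockouts. Both passed the filter on low counts through 168FARN alone, and nothing is read from their calls between the WT lines.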
